A study of Mus musculus with 16 samples.

Results

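Mitochondrial DNA is copied, transcribed and kept in repair entirely by proteins that the nucleus encodes, and the transcript levels of 10 such genes were followed in kidney epithelial cells given the antibiotic doxycycline (DOX). The genes were taken by name: *Tfam*, *Polrmt*, *Tfb1m* and *Tfb2m* of transcription, *Polg*, *Polg2*, *Ssbp1* and *Mgme1* of replication, and *Lrpprc* and *Slirp* of RNA stability. All 10 were found among the 54393 genes of the count table, and all 10 were among the 13234 genes with enough counts to be tested.

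The mIMCD3 line is a single mouse line from the inner medullary collecting duct of an SV40 transgenic animal, and the labels give its genotype as wild type. After 10 days on permeable filters, cells received the vehicle DMSO or DOX at 2 µg/mL for 3 or 6 days with daily changes of medium, which gave 4 groups of 4 replicate libraries (DMSO_3D, DOX_3D, DMSO_6D and DOX_6D). Every group shared a serum-containing epithelial medium that also carried the antibiotics gentamicin and amphotericin B. The labels do not say whether the replicates of a group came from separate passages, so p-values measure the spread between these libraries, which may be technical.

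The mitochondrial genome is a small circle packed into nucleoids. TFAM coats and bends this DNA, and at promoters it recruits the single-subunit polymerase POLRMT together with TFB2M, which opens the strands. The related TFB1M methylates the ribosomal RNA of the small mitochondrial subunit. Replication is carried out by the catalytic subunit POLG with its accessory subunit POLG2, with SSBP1 holding single strands open and the nuclease MGME1 trimming ends. LRPPRC and SLIRP bind each other and shield mitochondrial mRNAs from decay. Tetracyclines such as DOX are known to bind bacterial ribosomes and to slow the related ribosomes of mitochondria. The renal tubule is known for a high demand for mitochondrial ATP.

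Facts about the libraries as a whole are few. Total counts ran from 16933108 to 23960592 per library, and a limit of detection of 3 counts corresponds to 0.125 to 0.177 CPM (counts per 1000000 counts). This limit covers counting error only. All 6 epithelial marker genes were present at a mean of at least 1 TPM, a scale of transcript abundance that also divides by transcript length. Their summed level was 2120 to 2590 TPM in DMSO libraries and 1570 to 1820 TPM in DOX libraries. Only 3 of 10 collecting duct markers passed the filter on low counts. The water channel *Aqp2*, which defines principal cells, had a mean of 0.151 TPM, and the summed list had 6.93 to 10.2 TPM with DMSO and 3.12 to 5.08 TPM with DOX. No fibroblast marker of 6 passed the filter, and that list summed to 0.131 to 1.15 TPM. The 4 endothelial markers summed to 0.517 to 1.27 TPM. Of 4 immune markers, *Ptprc* (CD45) had a mean of 0.151 TPM and *Cd3e* of 0.00712 TPM. The other two, *Cd68* and *Csf1r*, carried nearly all of that list, which summed to 24.9 to 32.5 TPM with DMSO and 10.7 to 16.6 TPM with DOX. All libraries came from the mIMCD3 line, and in bulk RNA fewer cells with a marker and less of its RNA per cell cannot be told apart. The part of these marker shifts in the results was not tested.

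In DMSO-treated cells the 10 genes spanned a wide range of levels per transcript length. Over the 8 DMSO libraries, *Slirp* was highest with 223.8 ± 23.75 TPM (SD, n = 8), rank 533 of the 53354 genes of the TPM table. *Tfam* followed with 78.16 ± 11.43 TPM and *Ssbp1* with 58.81 ± 5.07 TPM (both SD, n = 8), and the ranges of this pair overlapped. A gap separated them from *Polg* (18.83 ± 2.46 TPM), *Polrmt* (18.24 ± 5.38 TPM), *Lrpprc* (14.84 ± 1.51 TPM), *Mgme1* (13.62 ± 1.43 TPM), *Tfb2m* (12.22 ± 2.07 TPM) and *Tfb1m* (9.94 ± 1.29 TPM), in which each gene overlapped the next. *Polg2* was lowest with 6.56 ± 0.50 TPM (SD, n = 8), rank 9345, and lay below every library of *Tfb1m*. The RNA of the DNA-coating protein TFAM and of the single-strand binding protein was thus more abundant, on the TPM scale, than that of the polymerase subunits. Estimated counts behind these values were 128 to 201 per library for *Polg2* and 1298 to 1994 for *Tfam*.

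The promoter windows of the genes called below, and of *Slirp*, are shown because nuclear respiratory factors are known to act on genes of this group through short motifs near the start site. Windows are RefSeq sequence of GRCm38.p6, 300 bases long, from 250 bases before the start to 50 bases after it, printed 5′ to 3′ on the strand of the gene. Capitals mark matches, on either strand, to CCGGAAG, the core bound by GABP (also called NRF-2), to CGCNTGCG, the core bound by NRF1, or to TGATGNAA, an ATF4 site. In these genes no match of one motif overlapped a match of another.
Tfb1m promoter, chr17:3557706-3558005 (minus strand): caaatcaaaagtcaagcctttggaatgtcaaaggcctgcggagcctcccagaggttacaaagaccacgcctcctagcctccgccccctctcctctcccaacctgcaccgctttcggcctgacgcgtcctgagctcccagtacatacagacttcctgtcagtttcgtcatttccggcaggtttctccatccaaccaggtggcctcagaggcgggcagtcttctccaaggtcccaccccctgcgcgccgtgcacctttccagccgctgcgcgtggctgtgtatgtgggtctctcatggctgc
Ssbp1 promoter, chr6:40471218-40471517 (plus strand): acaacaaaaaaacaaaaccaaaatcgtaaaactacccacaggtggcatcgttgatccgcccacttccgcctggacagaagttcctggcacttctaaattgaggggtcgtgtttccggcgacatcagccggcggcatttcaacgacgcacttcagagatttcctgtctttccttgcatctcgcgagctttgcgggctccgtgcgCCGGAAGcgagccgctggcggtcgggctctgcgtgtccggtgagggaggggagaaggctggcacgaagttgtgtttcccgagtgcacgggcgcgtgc
Lrpprc promoter, chr17:84790737-84791036 (minus strand): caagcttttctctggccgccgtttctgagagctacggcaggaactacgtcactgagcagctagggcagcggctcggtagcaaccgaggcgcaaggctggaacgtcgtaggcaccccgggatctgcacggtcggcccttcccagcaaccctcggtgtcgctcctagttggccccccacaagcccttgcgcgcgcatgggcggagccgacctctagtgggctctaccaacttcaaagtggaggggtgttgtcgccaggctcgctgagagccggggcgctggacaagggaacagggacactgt
Slirp promoter, chr12:87443646-87443945 (plus strand): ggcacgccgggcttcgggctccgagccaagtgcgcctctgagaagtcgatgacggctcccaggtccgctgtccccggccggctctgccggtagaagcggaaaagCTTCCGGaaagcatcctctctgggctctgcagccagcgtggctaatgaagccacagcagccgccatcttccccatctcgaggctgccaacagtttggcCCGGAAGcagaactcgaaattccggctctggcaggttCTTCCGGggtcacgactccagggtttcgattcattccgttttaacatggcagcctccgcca
CCGGAAG occurred in the windows of 6 of the 10 genes (*Tfam*, *Polrmt*, *Polg*, *Polg2*, *Ssbp1* and *Slirp*), and in 8.86% of all 32851 promoter windows. That wider set was neither limited to tested genes nor matched to the 10 in GC content. *Slirp* held 3 matches. In *Tfam* and *Ssbp1* the match began 47 bases before the start site, and in *Slirp* the middle match began 48 bases before it. CGCNTGCG occurred in *Polrmt*, with 2 matches that overlapped each other, and in *Tfb2m*, against 8.21% of all windows. TGATGNAA occurred in none of the 10, against 3.97% of all windows. The windows of *Tfb1m*, *Mgme1* and *Lrpprc* held none of the 3 motifs. These matches describe letters, not occupied sites.

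To examine the response of these genes to DOX, the groups were compared at each time. After 3 days, *Tfb1m* and *Ssbp1* rose by about 1.56-fold and 1.43-fold, while the other 8 genes did not pass the test. The test, edgeR's glmTreat, asks whether a change exceeds 1.2-fold. Genes with a Benjamini-Hochberg adjusted p under 0.05 over all 13234 genes are referred to as called. At 3 days 12.5% of all tested genes were called, beside 2 of the 10. The fold changes of 8 genes were above zero and those of 2 below it, with a median log2 fold change of 0.18 against 0.003 over all tested genes. After 6 days only *Lrpprc* was called among the 10, with a rise of 1.39-fold, where 21.6% of all tested genes were called. The 6-day changes split 5 to 5 in sign around a median of 0.06 in log2, and their median size without regard to sign was 0.12, against 0.23 over all tested genes.

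**Figure D1:**
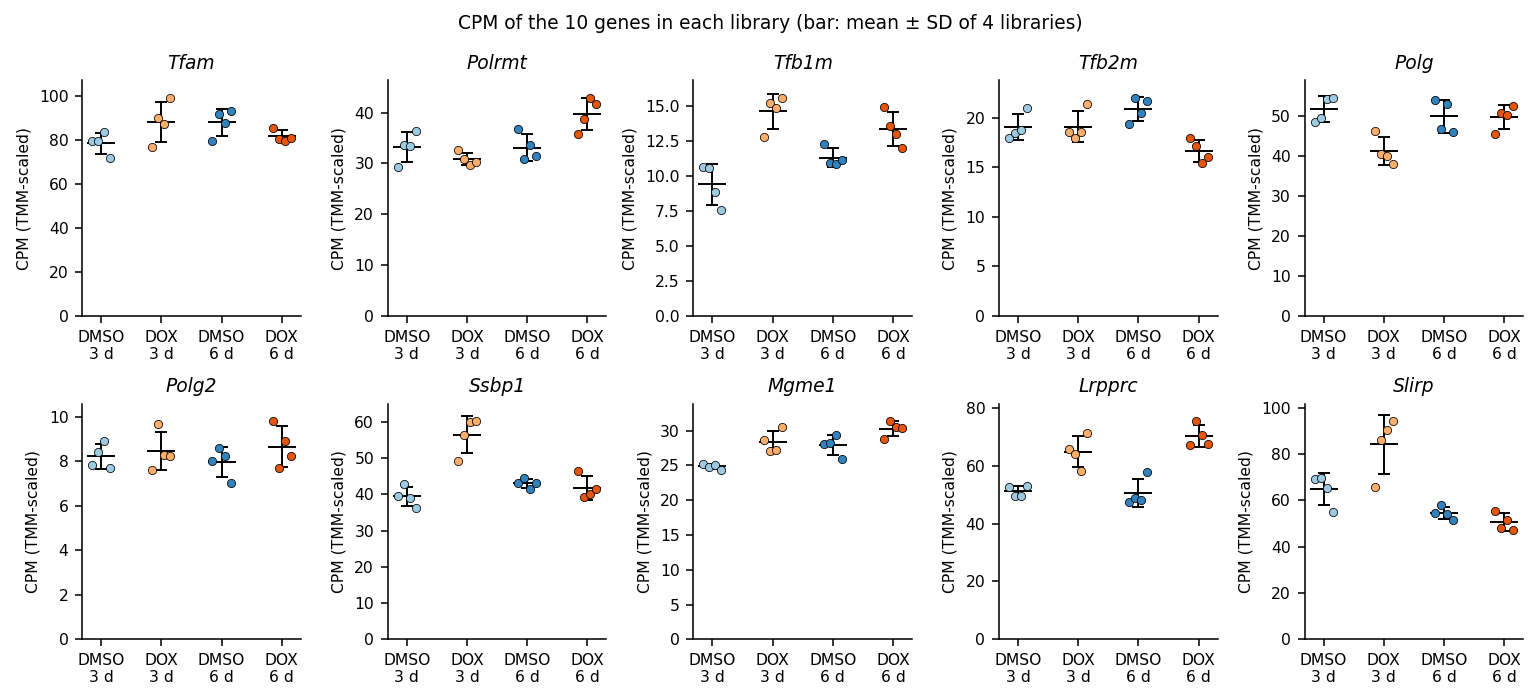
TMM-scaled CPM of each of the 10 genes (vertical axes, starting at 0) in the 4 libraries of each group (points), with the mean and SD of 4 libraries (bars). At 3 days all DOX libraries lie above all DMSO libraries for *Tfb1m*, *Ssbp1*, *Mgme1* and *Lrpprc*, and below them for *Polg*. At 6 days they lie above for *Lrpprc* and below for *Tfb2m*. Of all tested genes, 18.8% lay above and 19.8% below at 3 days, and 22.1% and 20.9% at 6 days.

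**Figure D2:**
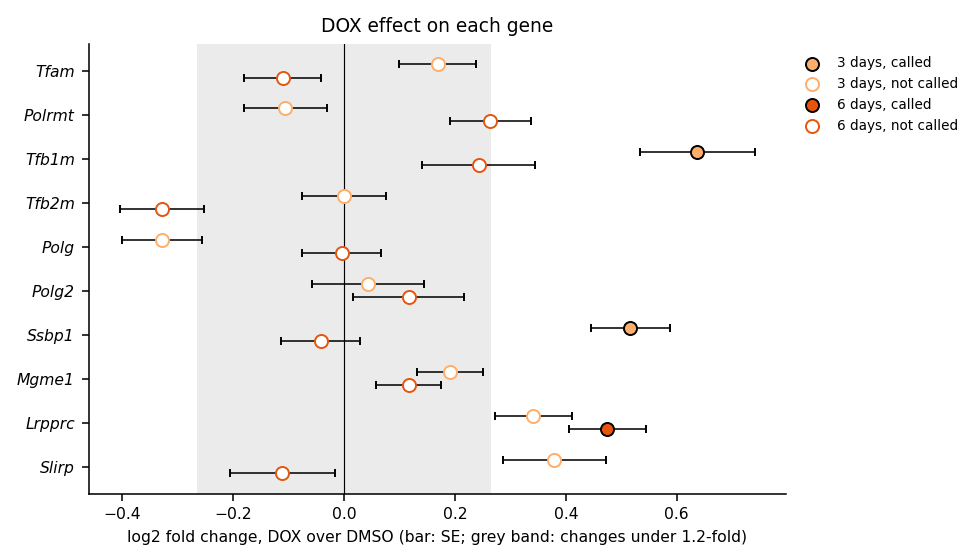
Log2 fold change of DOX over DMSO (horizontal axis) for each gene at 3 days (light) and 6 days (dark), with SE bars from the edgeR fit. Filled points passed the test against a 1.2-fold change, which holds for *Tfb1m* and *Ssbp1* at 3 days and *Lrpprc* at 6 days.

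Among the genes of transcription, *Tfb1m* (ENSMUSG00000036983, chr17:3519256-3557781, minus strand), the rRNA methyltransferase, was called at 3 days. Its level at 3 days was 10.66, 10.61, 8.87 and 7.60 CPM in DMSO libraries and 12.82, 15.24, 14.91 and 15.62 CPM in DOX libraries. Every DOX library lay above every DMSO library, which was so for 18.8% of all tested genes at 3 days. The log2 fold change was 0.64 (SE 0.103, edgeR adjusted p = 0.0026). At 6 days the DMSO libraries held 12.31, 10.95, 10.89 and 11.16 CPM and the DOX libraries 14.93, 13.63, 13.003 and 12.03 CPM. These ranges met at their edges, since the lowest DOX library fell below the highest DMSO library, and the log2 fold change of 0.24 (SE 0.102, edgeR adjusted p = 0.685) was not called. An exon of *Tiam2* lies on the opposite strand of *Tfb1m*, and the sources used here do not say whether counting used strand. *Tiam2* itself had a log2 fold change of 0.25 (SE 0.121, edgeR adjusted p = 0.723) at 3 days and 0.69 (SE 0.119, edgeR adjusted p = 0.00158) at 6 days, with a mean of 6.38 CPM beside 12.2 CPM for *Tfb1m*.

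*Tfb2m* (chr1:179528055-179546267, minus strand), whose product melts the promoter, was called at neither time. At 3 days it ranged over 18.005 to 21.02 CPM with DMSO and 17.93 to 21.41 CPM with DOX, a log2 fold change of 0.00014 (SE 0.076). At 6 days the DMSO libraries held 19.42, 22.04, 20.48 and 21.74 CPM and the DOX libraries 17.94, 17.21, 15.45 and 16.10 CPM. All 4 DOX libraries lay below all 4 DMSO libraries, as in 20.9% of all tested genes at 6 days, yet the log2 fold change of -0.33 (SE 0.076, edgeR adjusted p = 0.238) did not pass the test against a 1.2-fold change.

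*Tfam* (chr10:71225464-71238280, minus strand), which packages the genome, ranged over 71.83 to 83.45 CPM with DMSO and 76.82 to 99.26 CPM with DOX at 3 days. At 6 days its ranges were 79.64 to 93.34 CPM and 79.38 to 85.59 CPM. The groups overlapped at both times, with log2 fold changes of 0.17 (95% interval 0.03 to 0.31) and -0.11 (95% interval -0.25 to 0.03). *Polrmt* (chr10:79736123-79746581, minus strand), the RNA polymerase, gave 29.27 to 36.39 CPM with DMSO and 29.67 to 32.60 CPM with DOX at 3 days. At 6 days it gave 30.83 to 36.72 CPM with DMSO and 35.73 to 42.92 CPM with DOX. Its log2 fold changes were -0.11 (95% interval -0.25 to 0.04) and 0.26 (95% interval 0.12 to 0.41), and neither was called.

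Of the replication genes, *Ssbp1* (ENSMUSG00000029911, chr6:40471352-40484700, plus strand), the single-strand binding protein, was called at 3 days. DMSO libraries held 39.44, 42.81, 39.09 and 36.31 CPM and DOX libraries 49.23, 56.44, 59.87 and 60.15 CPM, with no overlap. All DOX libraries lay above all DMSO libraries in 18.8% of all tested genes at 3 days. The log2 fold change was 0.52 (SE 0.071, edgeR adjusted p = 0.00285). At 6 days the DMSO libraries held 42.98, 44.59, 41.38 and 43.00 CPM and the DOX libraries 46.49, 39.14, 40.19 and 41.38 CPM. Here the DOX libraries lay on both sides of the DMSO libraries, with a log2 fold change of -0.04 (95% interval -0.18 to 0.10). No other gene overlaps *Ssbp1* in the GENCODE annotation.

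The subunits of the DNA polymerase gave no call. *Polg* (chr7:79446231-79466362, minus strand), the catalytic subunit, held 48.44, 49.36, 54.26 and 54.50 CPM with DMSO at 3 days and 46.12, 40.45, 39.97 and 38.02 CPM with DOX. All DOX libraries were below all DMSO libraries, as in 19.8% of tested genes, and the log2 fold change was -0.33 (SE 0.072, edgeR adjusted p = 0.289). At 6 days *Polg* held 45.88 to 53.95 CPM with DMSO and 45.54 to 52.48 CPM with DOX, a log2 fold change of -0.004 (95% interval -0.14 to 0.14). *Fanci*, a DNA repair gene with an exon on the opposite strand of *Polg*, had log2 fold changes of -0.16 (SE 0.071, edgeR adjusted p = 1) at 3 days and -0.58 (SE 0.071, edgeR adjusted p = 0.000226) at 6 days. *Polg2* (chr11:106768253-106779537, minus strand), the accessory subunit, ranged over 7.02 to 9.80 CPM across all 16 libraries, with log2 fold changes of 0.04 (95% interval -0.15 to 0.24) and 0.12 (95% interval -0.08 to 0.31). *Mgme1* (chr2:144270663-144281227, plus strand), the nuclease, held 24.41 to 25.23 CPM with DMSO and 27.15 to 30.54 CPM with DOX at 3 days. These ranges did not overlap, with DOX above as in 18.8% of tested genes. The log2 fold change of 0.19 (SE 0.059, edgeR adjusted p = 1) was itself under 1.2-fold. At 6 days *Mgme1* held 25.93 to 29.36 CPM with DMSO, which was also above its 3-day DMSO range, and 28.75 to 31.38 CPM with DOX. Its log2 fold change at 6 days was 0.12 (95% interval 0.0018 to 0.23). An exon of *Snx5*, a sorting nexin with a mean of 537.2 CPM, lies on the opposite strand of *Mgme1*, whose mean was 27.87 CPM. *Snx5* had log2 fold changes of 0.38 (SE 0.079, edgeR adjusted p = 0.126) at 3 days and 0.14 (SE 0.079, edgeR adjusted p = 1) at 6 days, and without the strand setting reads of these genes cannot be told apart where they overlap. *Milr1* overlaps *Polg2* in the same way and did not pass the filter.

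Of the RNA stability genes, *Lrpprc* rose at 6 days and *Slirp* was called at neither time. *Lrpprc* (ENSMUSG00000024120, chr17:84705247-84790789, minus strand), the larger partner, held 52.48, 49.45, 49.68 and 53.16 CPM with DMSO at 3 days and 65.65, 64.06, 58.30 and 71.40 CPM with DOX. At 6 days DMSO libraries held 47.29, 48.87, 48.21 and 57.72 CPM and DOX libraries 67.25, 75.40, 70.72 and 67.45 CPM. The DOX libraries lay above the DMSO libraries at both times, as in 18.8% of tested genes at 3 days and 22.1% at 6 days. The log2 fold change was 0.34 (SE 0.070, edgeR adjusted p = 0.219) at 3 days and 0.48 (SE 0.070, edgeR adjusted p = 0.00453) at 6 days. With the trends of transcript length and GC content removed, the 3-day value of *Lrpprc* was 0.41 and was also called (edgeR adjusted p = 0.0268).

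*Slirp* (chr12:87443896-87452206, plus strand), the smaller partner, held 69.20, 69.70, 65.19 and 54.89 CPM with DMSO at 3 days and 65.95, 86.28, 90.25 and 94.23 CPM with DOX. In this gene 3 of 4 DOX libraries were above all DMSO libraries and replicate 1 was within their range, so the log2 fold change of 0.38 (SE 0.093, edgeR adjusted p = 0.184) was not called. Without that library it was 0.48 and was called (edgeR adjusted p = 0.00792), whereas without the lowest control, replicate 4 of DMSO_3D, it was 0.31 and was not called. At 6 days DMSO libraries held 51.33 to 58.03 CPM and DOX libraries 47.32 to 55.64 CPM, a log2 fold change of -0.11 (95% interval -0.30 to 0.07). *Slirp* shares exonic sequence on the opposite strand with *Alkbh1* and *Snw1*. *Alkbh1*, a mitochondrial and nuclear demethylase, had log2 fold changes of 0.49 (edgeR adjusted p = 0.00272) at 3 days and 0.46 (edgeR adjusted p = 0.00385) at 6 days, with a mean of 29.55 CPM beside 63.52 CPM for *Slirp*. *Snw1*, a splicing cofactor, had 0.16 (SE 0.053) at 3 days and 0.10 (SE 0.052) at 6 days, with a mean of 151.6 CPM, and was called at neither time (edgeR adjusted p = 1).

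Replicate 1 of DOX_3D was the treated library nearest to the DMSO mean in 6 of the 10 genes at 3 days (*Tfam*, *Polrmt*, *Tfb1m*, *Polg*, *Ssbp1* and *Slirp*), and in 46.4% of all tested genes. Left out, it raised the number called at 3 days from 2 to 3 by adding *Slirp*. *Tfb1m* then had a log2 fold change of 0.70 and *Ssbp1* of 0.58, and both stayed called. Replicate 1 of DOX_6D was nearest in 6 of 10 genes at 6 days and in 34.1% of all tested genes.

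To ask whether the DOX effect itself differed between the times, the log2 fold change at 3 days was subtracted from that at 6 days in the same fit, without a fold-change threshold. It differed for 5 of the 10 genes, beside 17% of all tested genes. *Ssbp1* differed by -0.56 (SE 0.101, edgeR adjusted p = 0.00143) and *Slirp* by -0.49 (SE 0.132, edgeR adjusted p = 0.0161), so that in both the effect was lower at 6 days. *Tfb2m* also differed downwards, by -0.33 (SE 0.107, edgeR adjusted p = 0.0392). Both polymerases moved the opposite way, *Polrmt* by 0.37 (SE 0.105, edgeR adjusted p = 0.0204) and *Polg* by 0.32 (SE 0.101, edgeR adjusted p = 0.033). *Lrpprc*, with 0.13 (SE 0.098, edgeR adjusted p = 0.371), *Tfam*, with -0.28 (SE 0.098, edgeR adjusted p = 0.0544), and *Tfb1m*, with -0.39 (SE 0.145, edgeR adjusted p = 0.0645), were not called, and neither were *Polg2* and *Mgme1*. The 3-day call of *Tfb1m* is therefore not shown to differ from its 6-day value.

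The longest transcripts of the genes called upwards have 60.52% GC (*Polrmt*) and 52.75% (*Polg*). Those of the genes called downwards have 40.95% (*Ssbp1*), 43.24% (*Slirp*) and 42.47% (*Tfb2m*). Of the genes not called, *Lrpprc* (47.07%) and *Polg2* (46.74%) had differences above zero. *Mgme1* (49.12%), *Tfam* (44.9%) and *Tfb1m* (42.62%) had differences below it. With the trends of length and GC content over all genes removed from each library, *Ssbp1* (-0.52, edgeR adjusted p = 0.00162) and *Slirp* (-0.38, edgeR adjusted p = 0.0311) stayed called and *Tfam* (-0.28, edgeR adjusted p = 0.0271) was called as well. *Polrmt* then had 0.13 (edgeR adjusted p = 0.226), *Polg* 0.12 (edgeR adjusted p = 0.312) and *Tfb2m* -0.17 (edgeR adjusted p = 0.27), and these 3 were no longer called. This correction used each gene's longest annotated transcript, which need not be the one measured. The longest has 4398 bases for *Ssbp1* and 4393 for *Lrpprc*, but TPM per CPM was 1.19 to 1.53 and 0.228 to 0.313. For *Slirp* (2701 bases) it was 3.04 to 4.26. The part of this choice in which genes stayed called was not tested. Leaving out any library kept *Ssbp1* and *Slirp* called, whereas *Polrmt* was lost in 3, *Polg* in 10 and *Tfb2m* in 11 of 16 such fits. With equally numbered libraries as a block, *Polg* was lost (0.33, edgeR adjusted p = 0.0552). With the block and the length and GC correction together, *Slirp* was lost as well (-0.38, edgeR adjusted p = 0.0514), and *Ssbp1* and *Tfam* were the genes called.

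**Figure D3:**
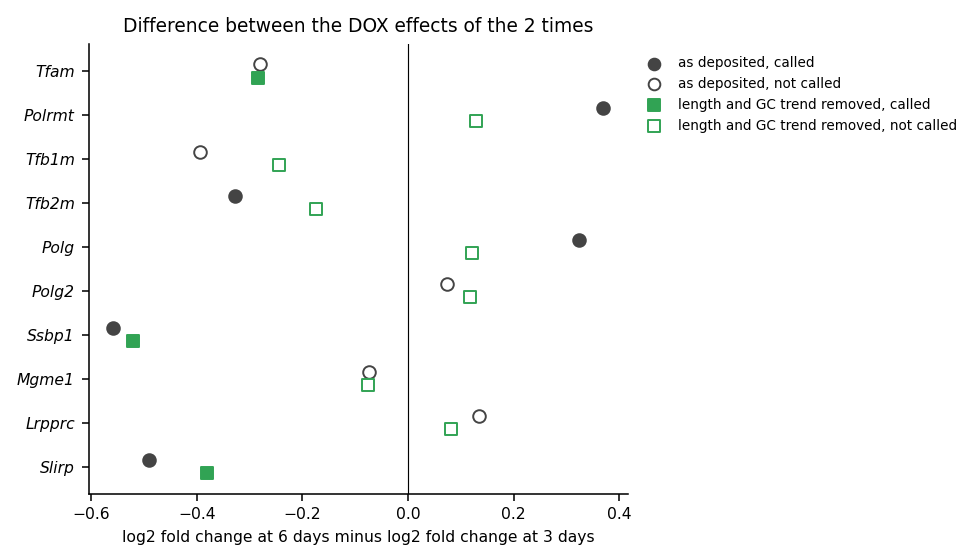
Log2 fold change of DOX over DMSO at 6 days minus that at 3 days (horizontal axis) for each gene, from the deposited counts (circles) and after removing trends with transcript length and GC content (squares), filled where the edgeR test called it. *Ssbp1* and *Slirp* are filled in both, and *Polrmt*, *Polg* and *Tfb2m* move toward zero.

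In DMSO-treated cells edgeR's glmTreat, which asks for a change beyond 1.2-fold, called none of the 10 genes between 6 and 3 days. None had an unadjusted p under 0.05 in that test. Over all tested genes it called 0%, 172 had an unadjusted p under 0.05, and DESeq2 with the same threshold also called 0. Without a fold threshold, edgeR gave an unadjusted p under 0.05 in 2355 of the 13234 genes and called 43 up and 19 down. None of the 10 was called in that fit either. The 95% intervals lay above zero for *Tfb1m* (log2 difference 0.27, 0.06 to 0.47), *Mgme1* (0.17, 0.05 to 0.28) and *Tfam* (0.17, 0.03 to 0.30). *Slirp* had the lowest difference of the 10 with -0.24 (95% interval -0.43 to -0.06).

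The log2 ratio of TPM was compared in each library between LRPPRC and SLIRP, which form a complex, between the subunits POLG and POLG2, between the related but functionally distinct TFB2M and TFB1M, and between TFAM and POLRMT, by an exact two-sided permutation test, whose smallest p with 4 against 4 libraries is 0.0286. For *Lrpprc* over *Slirp*, the mean log2 ratio was -4.01 with DMSO and -4.04 with DOX at 3 days, a difference of -0.02 (exact p = 0.914). At 6 days it was -3.82 ± 0.22 with DMSO and -3.26 ± 0.20 with DOX (SD, n = 4), a 1.47-fold higher ratio (exact permutation p = 0.0286, adjusted over 8 tests 0.114). The ratio was higher in every DOX_6D library than in every DMSO_6D library. For *Tfb2m* over *Tfb1m* the mean log2 ratio was 0.32 ± 0.34 with DMSO and -0.25 ± 0.11 with DOX at 3 days (SD, n = 4), again without overlap (exact permutation p = 0.0286, adjusted 0.114). The fold of this ratio was 0.673. At 6 days it differed by -0.45 (exact permutation p = 0.0857, adjusted 0.171), with overlap.

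The ratio of *Polg* to its accessory subunit *Polg2* differed by -0.42 at 3 days (exact permutation p = 0.114) and by -0.19 at 6 days (exact permutation p = 0.457). *Tfam* over *Polrmt* differed by 0.64 at 3 days (exact permutation p = 0.0571) and by -0.31 at 6 days (exact permutation p = 0.343). This ratio rests on the TPM of *Polrmt*, whose largest coefficient of variation within a group was 36.6% in TPM and 8.85% in CPM. From counts, the log2 fold changes at 3 days were 0.17 for *Tfam* and -0.11 for *Polrmt*. None of the 8 ratios passed after adjustment.

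**Figure D4:**
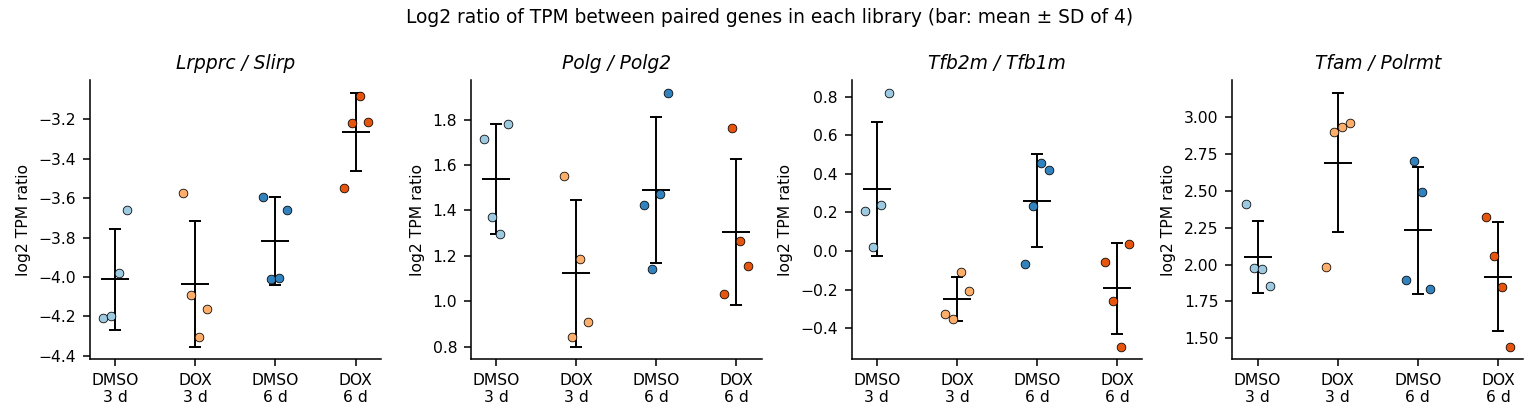
Log2 ratio of TPM between the genes of each pair (vertical axes, which do not start at 0) in the 4 libraries of each group (points), with the mean and SD of 4 libraries (bars). The DOX_6D libraries lie above the DMSO_6D libraries for *Lrpprc* over *Slirp*, and the DOX_3D libraries below the DMSO_3D libraries for *Tfb2m* over *Tfb1m*.

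The 10 genes belong to a wider machinery, for which 66 further genes in 6 groups were listed, and all 66 were tested. At 3 days 7 rose and 2 fell, and 57 were not called. At 6 days 8 rose and 4 fell, and 54 were not called. The median log2 fold changes of the 66 were 0.19 and 0.13, and the percentages of all genes called at these times are those given above.

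Nucleotide supply held 10 genes, of which 2 rose at each time and none fell. *Slc25a33*, a pyrimidine nucleotide carrier of the inner membrane, rose by 0.65 (SE 0.078, edgeR adjusted p = 0.00018) in log2 at 3 days and 0.75 (SE 0.076, edgeR adjusted p = 4e-06) at 6 days. *Nme4*, the nucleoside diphosphate kinase of mitochondria, rose by 0.87 (SE 0.111, edgeR adjusted p = 7.65e-05) and 0.61 (SE 0.110, edgeR adjusted p = 0.00389). *Dguok*, a deoxynucleoside kinase, had a lower effect at 6 than at 3 days, by -0.38 in log2 (edgeR adjusted p = 0.00732).

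Replication and the nucleoid held 13 genes, 2 rising and 1 falling at 3 days and 3 rising and 3 falling at 6 days. *Lonp1*, a matrix protease known to degrade TFAM, rose by 0.54 (SE 0.053, edgeR adjusted p = 0.000101) and 0.71 (SE 0.053, edgeR adjusted p = 8.95e-08). *Top1mt*, the mitochondrial topoisomerase, rose by 0.42 (edgeR adjusted p = 0.0434) and 0.59 (edgeR adjusted p = 0.000179). *Twnk*, the replicative helicase, had 0.01 at 3 days and rose by 0.49 (SE 0.078, edgeR adjusted p = 0.00605) at 6 days, and its effect differed between the times by 0.48 (edgeR adjusted p = 0.00718). The genes that fell at 6 days also act on nuclear DNA: *Pif1*, a helicase, with -0.61, *Dna2*, a nuclease and helicase, with -0.48, and *Fen1*, a flap nuclease of lagging-strand synthesis, with -0.39. Of these only *Dna2* was called at 3 days too (-0.47, edgeR adjusted p = 0.0147).

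Transcription held 6 genes. *Tefm*, the elongation factor, rose by 0.44 (SE 0.079, edgeR adjusted p = 0.0384) at 3 days and had 0.12 at 6 days, and the 5 *Mterf* genes were called at neither time. RNA processing held 18 genes, of which 1 rose at 3 days and 2 at 6 days. *Pnpt1*, the polynucleotide phosphorylase of the mitochondrial degradosome, rose by 0.50 at both times, and *Elac2*, which trims tRNA ends, rose by 0.48 at 6 days. Of 9 genes of rRNA modification, *Mrm1*, a ribose methyltransferase, rose by 0.55 (SE 0.099, edgeR adjusted p = 0.0057) at 6 days. Among 10 nuclear regulators *Ppargc1a*, a coactivator of mitochondrial biogenesis, fell by 0.63 (SE 0.130, edgeR adjusted p = 0.0122) at 3 days and by 0.55 (SE 0.129, edgeR adjusted p = 0.0249) at 6 days, from a mean of 1.57 TPM with DMSO. *Myc* rose by 0.43 at 3 days (edgeR adjusted p = 0.00369). *Nrf1* had log2 fold changes of 0.16 and 0.02, and *Gabpa*, the DNA-binding subunit of GABP, had -0.18 and -0.31. These were not called.

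**Figure D5:**
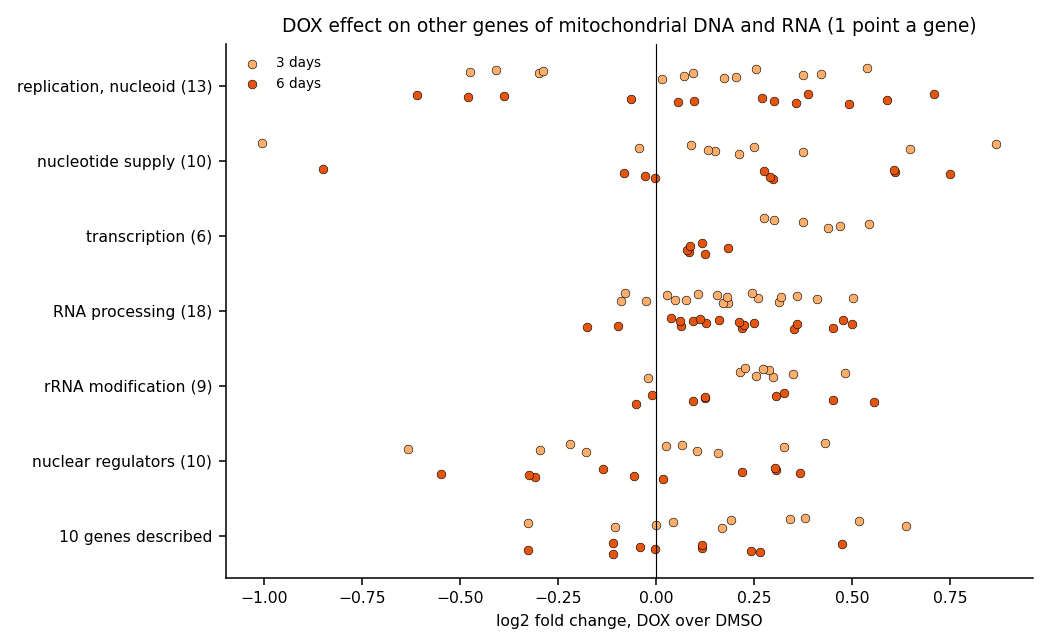
Log2 fold change of DOX over DMSO (horizontal axis) at 3 days (light) and 6 days (dark) for 66 further genes of mitochondrial DNA and RNA in 6 groups, and for the 10 genes described, 1 point a gene, with the number of genes in parentheses. *Slc25a33*, *Lonp1* and *Nme4* have the 3 highest called values at 6 days, and *Pif1* the lowest.

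The 13 protein-coding genes of mitochondrial DNA are transcribed by this machinery. They were counted per gene, so genes carried on a shared mRNA count separately. At 3 days, where 12.5% of all tested genes were called, 4 rose and 1 fell, from *mt-Co1* with -0.57 to *mt-Nd3* with 1.49 in log2. At 6 days, where 21.6% of all tested genes were called, 8 rose and none fell, from *mt-Co1* with -0.02 to *mt-Nd2* with 1.77. Their median was 0.30 at 3 days and 0.76 at 6 days, beside 0.18 and 0.06 for the 10 nuclear genes. The libraries were made from polyadenylated RNA, so these values count only transcripts captured by their tails. The part of tail length or capture in these changes was not tested.

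The genes whose levels tracked those of the 3 called genes were found by Pearson's r of log2 CPM over the 16 libraries, which share treatment groups, so r is a description. *Tfb1m* was followed by *Tbrg1* (r = 0.961), *Ascc1* (r = 0.954) and *Mrrf* (r = 0.953), the ribosome recycling factor of mitochondria. *Ssbp1* was followed by *Polr2h* (r = 0.957), a shared subunit of the nuclear RNA polymerases, *Ranbp1* (r = 0.953) and *Mrps17* (r = 0.95), a protein of the small mitochondrial ribosomal subunit. *Lrpprc* was followed by *Mtr* (r = 0.969), the methionine synthase, *Kdelc2* (r = 0.96) and *Fermt1* (r = 0.959).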

How the data were processed

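Polyadenylated RNA from 16 libraries was sequenced as read pairs after a directional preparation. Per the labels and the study's methods, reads were aligned to GRCm38.p6 with STAR and quantified with Salmon 0.14.10 (from the submitters' processing notes). The strand setting and annotation release are not given in the sources used here. The authors deposited unnormalized estimated counts per gene, and a table of TPM, which the authors' quantification scales by transcript length and library. Positions came from GENCODE M21, which holds all 54393 gene identifiers.

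Counts were rounded, genes with a CPM of at least 1 in at least 4 libraries were kept, and edgeR 4.0.16 (R 4.3.3) was run with TMM, robust quasi-likelihood, 1 mean per group over all 16 libraries, glmTreat at 1.2-fold and Benjamini-Hochberg adjustment. Differences between times used glmQLFTest. SE and 95% intervals were approximated from the fit. Depth was 16933108 to 23960592 counts. The code was tested on simulated data. The members and gene lists were chosen with earlier results of these data known. All 10 genes are named. Of the 66 further genes, up to 5 rises and 5 falls at 6 days are named, and others were added after their values were seen (*Dguok*, *Twnk*, *Tefm*, *Pnpt1*, *Elac2*, *Myc*, *Nrf1* and *Gabpa*).

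Alternatives were RLE scaling, DESeq2 1.42.0, limma 3.58.1 on log2(TPM + 1) and log2(TPM + 0.1), other filters and thresholds, no robust estimation, a replicate block, a length and GC offset (splines with 5 degrees of freedom), fits of 8 libraries, and leaving out each library. The offset took length and GC content from each gene's longest annotated transcript. Replicate correlations of 0.989 to 0.996 showed no near-copies.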

Additional observations from a re-analysis of the deposited data

Results flagged for a closer look

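*Lrpprc* in DMSO_6D had 1 library far from the others, replicate 4 with 57.72 CPM where the other 3 held 47.29 to 48.87 CPM. The gap was 0.849 of the range of the group. Of 40 sets of 4 libraries searched, 1 was found, and chance gives about 1 in 20. Without this library the 6-day log2 fold change of *Lrpprc* was 0.54 and stayed called (edgeR adjusted p = 0.000429).

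The DOX effect differed between 6 and 3 days by an interaction test in 5 of the 10 genes, beside 17% of all tested genes. The log2 difference was -0.5585 for *Ssbp1*, -0.4902 for *Slirp*, -0.3281 for *Tfb2m*, 0.3701 for *Polrmt* and 0.3236 for *Polg*. With length and GC trends removed, *Polrmt* (edgeR adjusted p = 0.226), *Polg* (0.312) and *Tfb2m* (0.27) were not called.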

How the results depend on the processing

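*Tfb1m* and *Ssbp1* at 3 days and *Lrpprc* at 6 days stayed called in every edgeR and DESeq2 fit run and without any single library. They were lost under limma on TPM, where 0 of the 10 genes were called at either time with either pseudocount and 1 (*Ssbp1*) in the difference between times, against 2, 1 and 5. Without a fold threshold 6 and 3 genes were called. Of all 13234 tested genes, that fit called 3047 up and 2935 down at 3 days. At 6 days it called 3396 up and 3306 down. With a 1.2-fold threshold on the difference between times 0 of the 10 were called, and of all tested genes 87 up and 96 down. The length and GC offset left 3 calls in that difference (*Ssbp1*, *Slirp* and *Tfam*), and 2 with the replicate block, where *Slirp* was lost. Deviations from group means of equally numbered libraries had correlations from -0.433 to 0.178. These cannot show whether such libraries were handled together. The block alone gave 2, 1 and 4 calls. Of the 66 further genes, edgeR called 9 at 3 days and 12 at 6 days. DESeq2 called 5 and 7, limma 2 and 2 (4 and 4 with the smaller pseudocount), no threshold 44 and 35, and the offset with block 5 at 3 days. Over all tested genes, DESeq2 called 413 up and 606 down at 3 days, and 866 up and 1096 down at 6 days. With a pseudocount of 1, limma called 85 up and 616 down, then 376 up and 931 down. With 0.1 it called 104 up and 805 down, then 448 up and 1079 down. Numbers without a threshold are given above. The offset with block called 744 up and 762 down at 3 days. On TPM with pseudocounts of 1 and 0.1, the median log2 fold change over all genes was -0.149 and -0.178 at 3 days. At 6 days it was -0.0547 and -0.063. In the main fit these medians were 0.00306 at 3 days and -0.000641 at 6 days. For the shifts between fits the cause was not tested, except that fits without a threshold ask for less.

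Leaving out 1 library gave 2 to 3 of the 10 called at 3 days, 1 at 6 days and 2 to 7 in the difference between times (2 without DMSO_6D replicate 2 or DOX_6D replicate 3, and 7 without replicate 1 of DOX_3D or of DOX_6D). The 66 further genes gave 7 to 15 at 3 days (15 without DOX_3D replicate 1) and 11 to 17 at 6 days. Numbers over all tested genes moved too. Without DOX_3D replicate 1, 1079 were called up and 1218 down at 3 days, and 1837 up and 1951 down in the difference between times. That difference called 1396 up and 1591 down without DOX_6D replicate 1, and 643 up and 827 down without DMSO_6D replicate 2. Without DOX_6D replicate 3 it called 627 up and 900 down.

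Changes of sign occurred in log2 values that were not called. With the offset, then with the block added, they were 0.046 and 0.047 for *Polrmt*, -0.089 and -0.087 for *Tfb2m* at 3 days, 0.00081 and 0.0020 for *Polg* and 0.032 and 0.032 for *Ssbp1* at 6 days, and for DMSO at 6 against 3 days 0.062 and 0.062 for *Polrmt*, 0.079 and 0.078 for *Polg* and 0.0070 and 0.0066 for *Lrpprc*. *Polg2* at 3 days had -0.0015 with both. On TPM with pseudocounts of 1 and 0.1 they were -0.097 and -0.10 for *Tfb2m* and -0.068 and -0.077 for *Polg2* at 3 days, 0.045 and 0.048 for *Mgme1* between times, and in DMSO 0.12 and 0.12 for *Polrmt*, 0.018 and 0.018 for *Polg*, 0.059 and 0.068 for *Polg2* and 0.017 and 0.018 for *Lrpprc*. *Tfb2m* at 3 days had -0.013 with the filter in all 16 libraries, -0.0041 without a filter and -0.00072 with 8 libraries, and *Polg* at 6 days 0.033 without a filter. Without 1 library, ranges crossed zero for *Tfb2m* at 3 days (-0.0575 to 0.051), *Polg* at 6 days (-0.0425 to 0.0356), *Polg2* at 3 days (-0.0281 to 0.0917), *Lrpprc* over *Slirp* at 3 days (-0.176 to 0.0943), and in DMSO *Polrmt* (-0.0604 to 0.0406), *Polg2* (-0.083 to 0.014) and *Lrpprc* (-0.089 to 0.011).

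The fewest counts were those of *Polg2* (128 to 201 per library) and *Tfb1m* (155 to 332).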

Other observations

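TPM and CPM of the same libraries varied unequally in some of the 10 genes. The largest coefficient of variation within a group was 36.6% in TPM and 8.85% in CPM for *Polrmt*, and 22.8% against 8.46% for *Polg*. For *Tfb1m* it was 7.79% in TPM and 15.7% in CPM. In the DMSO_6D libraries *Polrmt* held 25.60, 13.07, 13.29 and 25.25 TPM where it held 36.72, 30.83, 33.58 and 31.37 CPM, so the libraries split in TPM and not in CPM. The TPM per CPM of *Polrmt* ran from 0.337 to 0.805 over the 16 libraries, and that of *Ssbp1* from 1.19 to 1.53. GENCODE lists 13 transcripts for *Polrmt*, 18 for *Polg* and 7 for *Ssbp1*.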
